A study of Mus musculus with 6 samples.

Results

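Transcripts of 36 genes that drive and carry out mitosis were compared between mouse embryos labelled wild type and embryos labelled as knockout of the latrophilin-2 gene. The genes were taken by symbol, as a list of mitotic cyclins and checkpoint, spindle, kinetochore and cytokinesis genes, and all 36 were found among the 24421 symbols of the count tables. Each of them also passed the filter on low counts, as part of the 13848 genes tested. The study comprised 6 libraries of whole embryos of strain C57BL/6N at embryonic day 9.5, 3 labelled wild type and 3 labelled as homozygous knockout of Lphn2 (current symbol Adgrl2), the gene of a latrophilin, a receptor of the adhesion class. The title of the series names heart development as its subject. How the allele was made, and whether a sample was 1 embryo or a pool, is not given in the sources used here. Libraries were made with a kit that counts tags from the 3' ends of polyadenylated RNA, so a level is given as CPM, the count scaled to a common library size after TMM (trimmed mean of M values) adjustment, with no division by transcript length. A change is the log2 ratio of the knockout to the wild type level, given with its standard error (SE).

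Entry into mitosis is driven by Cdk1 bound to cyclins A and B, whose activity the Cdc25 phosphatases release and whose end comes when the anaphase-promoting complex, loaded with Cdc20, marks cyclin B and securin for destruction. The checkpoint kinases hold that complex back until each kinetochore is attached to the spindle. Most of these genes are transcribed late in the cell cycle. The MuvB complex, together with B-Myb and FoxM1, then acts at a promoter element named the CHR. Many promoters of such genes also hold another element, the CCAAT box. In the mouse conceptus the cells of the embryo divide fast, whereas trophoblast giant cells and many decidual cells of the uterus copy their DNA without dividing.

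Promoter sequence is shown because the 36 genes are known as a set that is transcribed together. RefSeq windows on GRCm38.p6 (the build mm10), of 300 bases with 250 before the transcription start, were matched by symbol for 30 of the genes, in 32 windows. The genes without a window were Ccna2, Cdc25c, Aurkb, Incenp, Tpx2 and Kif20a. The CHR was searched as TTTGAA or TTCGAA and the CCAAT box as CCAAT, both on either strand, so that TTCAAA and ATTGG count as well. The CHR stood in 25 of 32 windows (78.1%), against 19.2% of all 32851 windows, and CCAAT in 24 (75%), against 37.4%. Both were present in 22 windows (68.8%), against 7.52% of all windows, and in 1 window of a member the motifs overlapped. In 24 of the 25 windows with a CHR, the copy nearest to the start lay within 50 bases of it. Of the windows of 85 other mitosis genes 55.2% held a CHR, against 16.7% for genes of DNA replication and 20.8% for regulators of the G1 phase. The 110 bases before the start follow for 8 genes, 5' to 3' on the strand of the gene, with the motifs in capitals. The first 5 hold a CHR, Birc5 holds neither motif and its transcript was low in knockout replicates 2 and 3, and Nuf2 and Anln are genes whose transcript was not lower in the knockout. They lie on mm10 as follows: Cdk1 at chr10:69352913-69353022 (minus strand), Cdc20 at chr4:118437344-118437453 (minus strand), Kif11 at chr19:37376272-37376381 (plus strand), Top2a at chr11:99024190-99024299 (minus strand), Prc1 at chr7:80294366-80294475 (plus strand), Birc5 at chr11:117849127-117849236 (plus strand), Nuf2 at chr1:169531465-169531574 (minus strand) and Anln at chr9:22389207-22389316 (minus strand).
Cdk1: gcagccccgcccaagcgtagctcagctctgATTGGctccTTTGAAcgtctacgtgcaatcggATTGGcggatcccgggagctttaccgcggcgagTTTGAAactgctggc
Cdc20: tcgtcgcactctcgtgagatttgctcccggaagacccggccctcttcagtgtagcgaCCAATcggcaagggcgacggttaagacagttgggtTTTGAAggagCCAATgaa
Kif11: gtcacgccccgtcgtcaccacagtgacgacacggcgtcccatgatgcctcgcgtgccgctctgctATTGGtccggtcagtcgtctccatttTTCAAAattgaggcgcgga
Top2a: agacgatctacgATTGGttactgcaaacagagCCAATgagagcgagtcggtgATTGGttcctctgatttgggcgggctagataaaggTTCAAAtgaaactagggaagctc
Prc1: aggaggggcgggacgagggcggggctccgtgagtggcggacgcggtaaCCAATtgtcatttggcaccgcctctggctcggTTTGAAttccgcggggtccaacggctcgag
Birc5: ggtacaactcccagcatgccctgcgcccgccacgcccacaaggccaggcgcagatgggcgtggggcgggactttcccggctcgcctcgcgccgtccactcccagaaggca
Nuf2: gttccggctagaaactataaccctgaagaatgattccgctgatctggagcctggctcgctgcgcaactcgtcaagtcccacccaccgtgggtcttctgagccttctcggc
Anln: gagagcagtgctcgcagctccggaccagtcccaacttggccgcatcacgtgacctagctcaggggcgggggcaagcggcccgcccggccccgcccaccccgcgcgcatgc
The copies of the CHR in Anln began at bases 22 and 29 after the start, outside the stretch shown, and its window held no CCAAT. The windows of Nuf2 and Pttg1, the other members not lower in the knockout, held neither motif, and these genes were picked for this comparison after their values were seen. The same lack of both motifs was found in Birc5, Mad2l1 and Nusap1, with log2 fold changes of -0.67, -0.29 and -0.79. The median log2 fold change was -0.66 over the 23 members with a CHR in the window and -0.57 over the 7 without. A match of letters describes the window and does not show that a factor binds there.

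Of the 36 mitosis and spindle genes, 33 had a lower and 3 a higher estimated level in the knockout, and 0 differed past the threshold in either direction (edgeR quasi-likelihood test, Benjamini-Hochberg adjusted p under 0.05 over all genes). Over all genes tested 53.4% had a log2 fold change below 0, and 0.0505% were called lower and 0% higher. The median log2 fold change was -0.62 for the 36 genes and -0.04 for all genes, with a range among the members from -1.16 (Cenpf) to 0.57 (Anln). At an unadjusted p under 0.05, 6 members were lower (Cdk1, Bub1, Cdc20, Cenpa, Cenpf and Ndc80), against 6.86% of all genes, and 0 were higher, against 8.68%. DESeq2 and limma-voom called 0 members in either direction, where DESeq2 called 2.87% of all genes lower and 3.49% higher, and limma-voom 0.0505% and 0%. Nothing says that the samples came from separate litters, so a p-value here reflects no more than the scatter of these samples, which may be technical. In RNA of a whole conceptus, fewer dividing cells and less of a transcript per cell cannot be told apart.

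**Figure D1:**
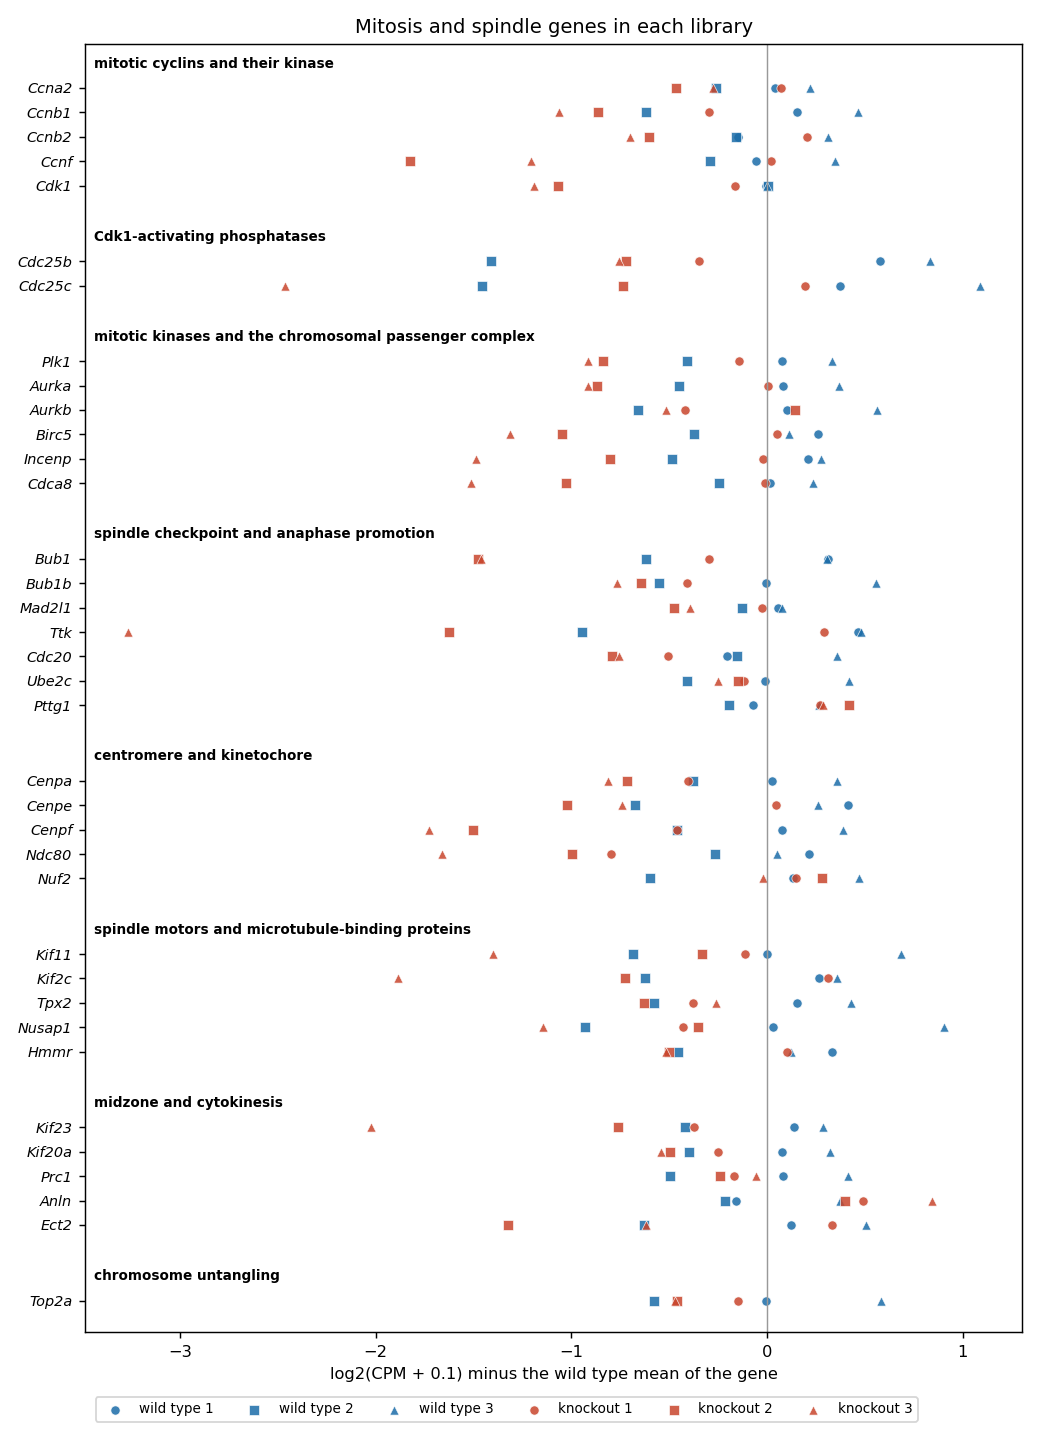
Each row is a gene and each point a library, plotted as log2(CPM + 0.1) minus the mean of the 3 wild type libraries (blue, wild type; red, knockout; circle, square and triangle, replicates 1, 2 and 3). Red squares and triangles lie left of the blue points in most rows, whereas red circles lie among the blue points in 30 of 36 rows.

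The difference was carried unevenly by the libraries. Knockout replicate 1 lay within the range of the wild type libraries for 30 of the 36 genes, below it for 4 (11.1%, against 21.2% of all genes tested) and above it for 2 (5.56%, against 23.4%). Knockout replicate 2 lay below every wild type value for 25 genes (69.4%, against 31.4% of all genes) and knockout replicate 3 for 26 (72.2%, against 31.7%). Each of these libraries lay above every wild type value for 2 genes, against 29.8% of all genes in replicate 2 and 29.9% in replicate 3. The median member stood at 89.4% of its wild type mean in knockout replicate 1, at 57.5% in replicate 2 and at 53.8% in replicate 3. Among wild type libraries, replicate 2 was the lowest for 34 of the 36 genes (94.4%, against 37.2% of all genes) and replicate 3 the highest for 30 (83.3%, against 36.7%). As medians over the 36 genes, differences from the wild type mean (log2) were 0.08, -0.46 and 0.36 in wild type and -0.12, -0.72 and -0.79 in the knockouts. Ordered by that median, knockout replicate 1 thus lay above wild type replicate 2.

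The groups did not overlap, with the knockouts lower, in 4 members, Cdk1, Cdc20, Cenpa and Ndc80 (11.1%, against 9.39% of all genes), and with the knockouts higher in 2, Pttg1 and Anln (5.56%, against 12.1%). The first share is near that of all genes and the second is below it, and both rest on the scaling: with library size alone the lower set was Cdc20 and Ndc80 and the higher set was empty, and with DESeq2 size factors Cenpf joined the lower set and Pttg1 left the higher one. Without wild type replicate 2 the lower set held 27 genes (against 20.1% of all genes), and without knockout replicate 1 it held 24 (against 23.6%). Without knockout replicate 1 the test called 4 members lower, Cdk1, Birc5, Cdca8 and Cenpf, and 0 higher (edgeR, adjusted p = 0.0266, 0.049, 0.0407 and 0.0401), against 3.27% of all genes lower and 1.77% higher. The count was 0 in each direction without any other single library. When knockout replicate 1 alone was set against wild type, the median member was at -0.14 and 25 of 36 were below 0, where 54.2% of all genes were.

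The mitotic cyclins and their kinase were lower in all 5 estimates, with a median log2 fold change of -0.73. Cdk1, the kinase that starts mitosis (mm10 chromosome 10, 69335146 to 69352938), had 144, 145 and 144 CPM in wild type libraries (values follow replicates 1, 2 and 3 throughout) and 129, 68.7 and 63.2 CPM in the knockouts. The wild type libraries were nearly level for this gene, and knockout replicates 2 and 3 stood at 47.6% and 43.8% of their mean. The means were 144 ± 0.556 and 86.96 ± 36.5 CPM (SD, n = 3 each), a log2 fold change of -0.73 ± 0.29 that did not pass (edgeR, adjusted p = 0.292). Ccnb1, cyclin B1, which binds Cdk1 at mitotic entry, had 33.7, 19.7 and 41.8 CPM in wild type libraries and 24.6, 16.6 and 14.4 CPM in the knockouts (log2 fold change -0.77 ± 0.33 SE, adjusted p = 0.325). Wild type replicate 2 lay below knockout replicate 1, so the groups overlapped. Ccnf, cyclin F, which serves a ubiquitin ligase and not a kinase, had 8.18, 6.94 and 10.9 CPM in wild type libraries and 8.62, 2.33 and 3.63 CPM in the knockouts (-0.82 ± 0.50). The other B-type cyclin, Ccnb2, stood at 6.51, 6.45 and 8.98 CPM against 8.34, 4.73 and 4.41 CPM (-0.32 ± 0.35). Ccna2, cyclin A2, which acts from S phase to early mitosis, had the smallest difference of the 5, with 64.5, 52.2 and 73.0 CPM against 65.8, 45.3 and 51.8 CPM (-0.22 ± 0.21). In Ccnf, Ccnb2 and Ccna2 alike, knockout replicate 1 lay among the wild type values and the other knockout libraries below them.

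The Cdc25 phosphatases, which remove the inhibitory phosphates from Cdk1, varied most within wild type. Cdc25b had 103.8, 26.1 and 123.7 CPM in wild type libraries and 54.5, 42.1 and 41.01 CPM in the knockouts. All 3 knockout values lay between the lowest and the other wild type values (log2 fold change -0.88 ± 0.51 SE, adjusted p = 0.447). Without wild type replicate 2 it had the smallest p of the members (edgeR, log2 fold change -1.30, adjusted p = 0.117). Cdc25c was at the edge of detection, with 31, 4 and 73 counts in wild type and 25, 7 and 1 counts in knockout libraries, and its log2 fold change of -1.08 ± 1.03 carries that error.

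Among mitotic kinases, Plk1 (Polo-like kinase, which acts at centrosomes, kinetochores and the midzone) had 107.9, 77.1 and 129 CPM in wild type libraries and 92.7, 57.1 and 54.3 CPM in the knockouts (log2 fold change -0.62 ± 0.28 SE, adjusted p = 0.352). Aurka, Aurora A, which matures spindle poles, had 66.1, 45.6 and 80.7 CPM against 62.6, 34.1 and 33.0 CPM (-0.57 ± 0.32). For both kinases knockout replicates 2 and 3 lay below wild type replicate 2, the lowest of its group.

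The chromosomal passenger complex holds Aurora B with its scaffold and targeting subunits. Birc5, survivin, had 464, 299 and 419 CPM in wild type libraries and 401, 187 and 156 CPM in the knockouts. Knockout replicate 1 lay within the wild type range and the other knockout libraries at 47.5% and 39.5% of the wild type mean, for a log2 fold change of -0.67 ± 0.38 (SE). Cdca8, borealin, was also lowest in knockout replicates 2 and 3, with 64.2, 53.6 and 74.8 CPM against 63.1, 31.2 and 22.2 CPM (-0.72 ± 0.38). Incenp, the scaffold, had 52.6, 32.4 and 55.0 CPM against 44.8, 25.97 and 16.2 CPM (-0.69 ± 0.39). The 3 non-kinase subunits were thus low in the same pair of libraries. Aurkb itself had 4.20, 2.43 and 5.82 CPM in wild type libraries and 2.90, 4.33 and 2.71 CPM in the knockouts (-0.33 ± 0.43), with every knockout value inside the wild type range. Without knockout replicate 1 the estimates were -1.20 ± 0.25 for Birc5, -1.26 ± 0.24 for Cdca8, -1.14 ± 0.32 for Incenp and -0.24 ± 0.50 (SE) for Aurkb, and the differences between the subunits were not tested.

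**Figure D2:**
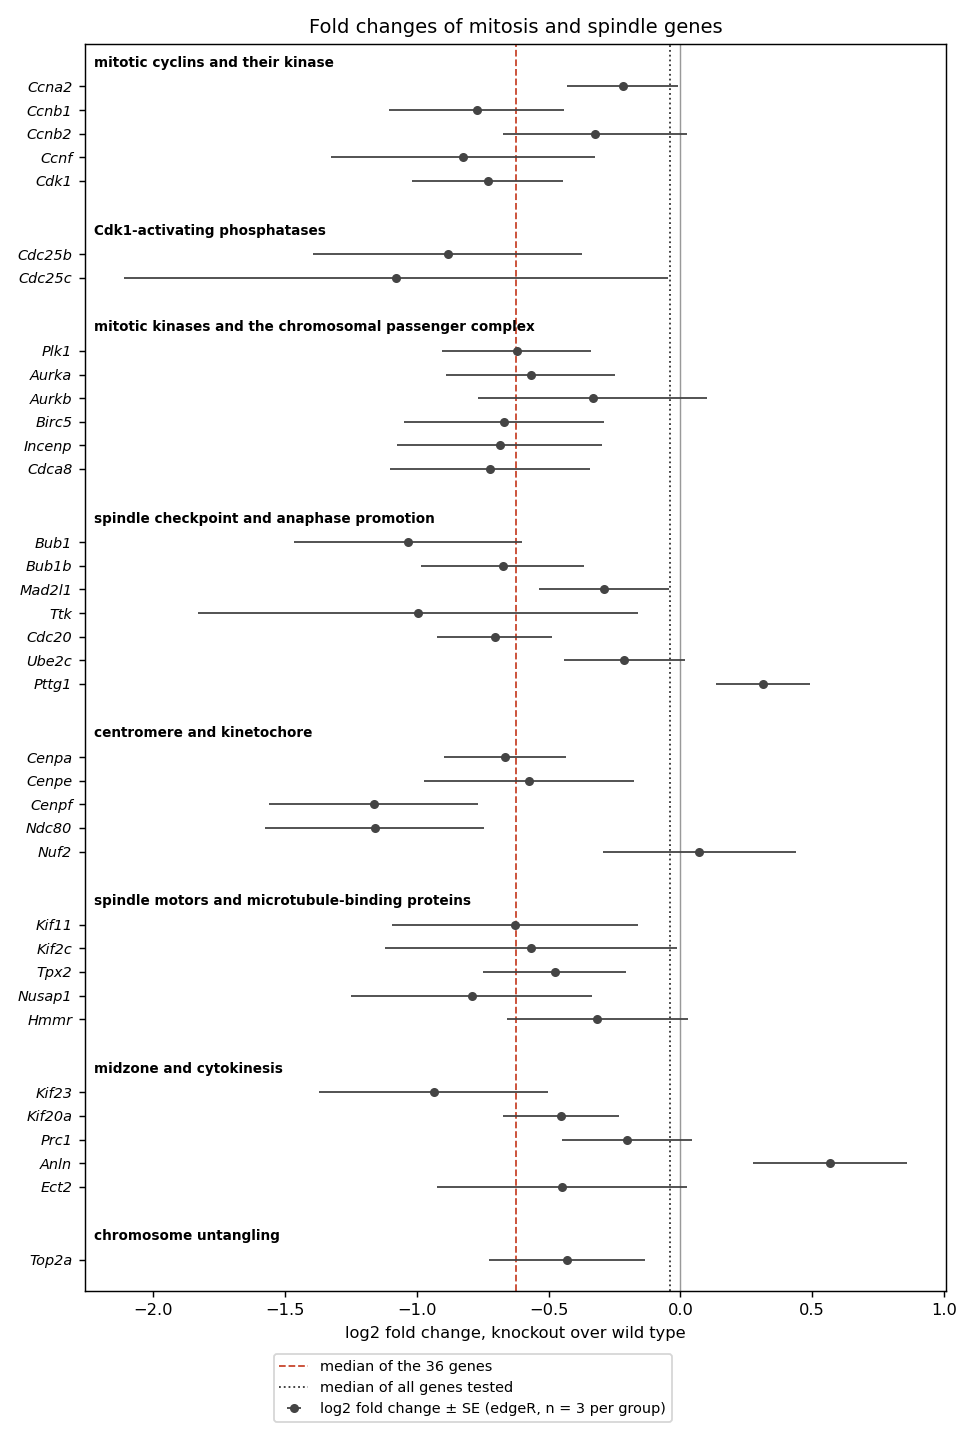
Points give log2 of knockout over wild type for each of the 36 genes by role, with bars of 1 SE from the edgeR fit (n = 3 per group). The dashed line marks the median of the 36 genes at -0.62 and the dotted line the median of all genes tested at -0.04, and Pttg1, Anln and Nuf2 lie right of 0.

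Of the 7 genes of the spindle checkpoint and of anaphase promotion, 6 had a lower estimate. Bub1, a checkpoint kinase at kinetochores, had 16.8, 8.76 and 16.8 CPM in wild type libraries and 10.97, 4.79 and 4.84 CPM in the knockouts (log2 fold change -1.03 ± 0.43 SE, adjusted p = 0.315). Bub1b, BubR1 of the mitotic checkpoint complex, had 19.3, 13.2 and 28.4 CPM against 14.5, 12.3 and 11.3 CPM (-0.67 ± 0.31). Ttk, the kinase Mps1 that starts checkpoint signalling, had 17.3, 6.45 and 17.5 CPM against 15.3, 3.99 and 1.21 CPM. Knockout replicates 1 and 3 differed more for Ttk than the group means did, and its log2 fold change of -0.9961 had an SE of 0.83. Mad2l1, Mad2, which is loaded onto Cdc20 at unattached kinetochores, had 10.02, 8.82 and 10.2 CPM against 9.48, 6.92 and 7.33 CPM (-0.29 ± 0.25).

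Cdc20, the activator of the anaphase-promoting complex and the target of the checkpoint (mm10 chromosome 4, 118432901 to 118437352), had the smallest p of the members. It had 27.7, 28.7 and 40.8 CPM in wild type libraries and 22.4, 18.4 and 18.8 CPM in the knockouts. All knockout values lay below all wild type values, with means of 32.4 ± 7.30 and 19.9 ± 2.24 CPM, and the log2 fold change of -0.70 ± 0.22 (SE) did not pass (edgeR, adjusted p = 0.217, with 0.0864 to 1 over the alternatives). Exons of Cdc20 overlap those of Elovl1 on the opposite strand. Since the handling of strand is not given, reads of the 2 genes within the shared stretch cannot be told apart. Whether the 3' tags fall in that stretch was not checked. The same holds for Ccna2 with Exosc9, Cdc25b with Spef1, Ube2c with Tnnc2, Cdca8 with 9930104L06Rik, Nusap1 with Oip5 and Prc1 with Rccd1. Ube2c, the ubiquitin-conjugating enzyme of that complex, had 50.3, 38.0 and 67.8 CPM against 46.6, 45.6 and 42.5 CPM (-0.21 ± 0.23), all 3 knockout values inside the wild type range. Pttg1, securin, which restrains the protease that cuts cohesin, was the exception. It had 41.4, 38.0 and 52.4 CPM in wild type libraries and 52.5, 58.2 and 53.1 CPM in the knockouts (log2 fold change 0.31 ± 0.18 SE, adjusted p = 0.439), with knockout replicate 1 only just above wild type replicate 3, and the groups overlapped when libraries were scaled by DESeq2 size factors. Cdc20 and Pttg1, which code for a partner and a substrate of the same complex, thus had estimates of opposite sign.

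**Figure D3:**
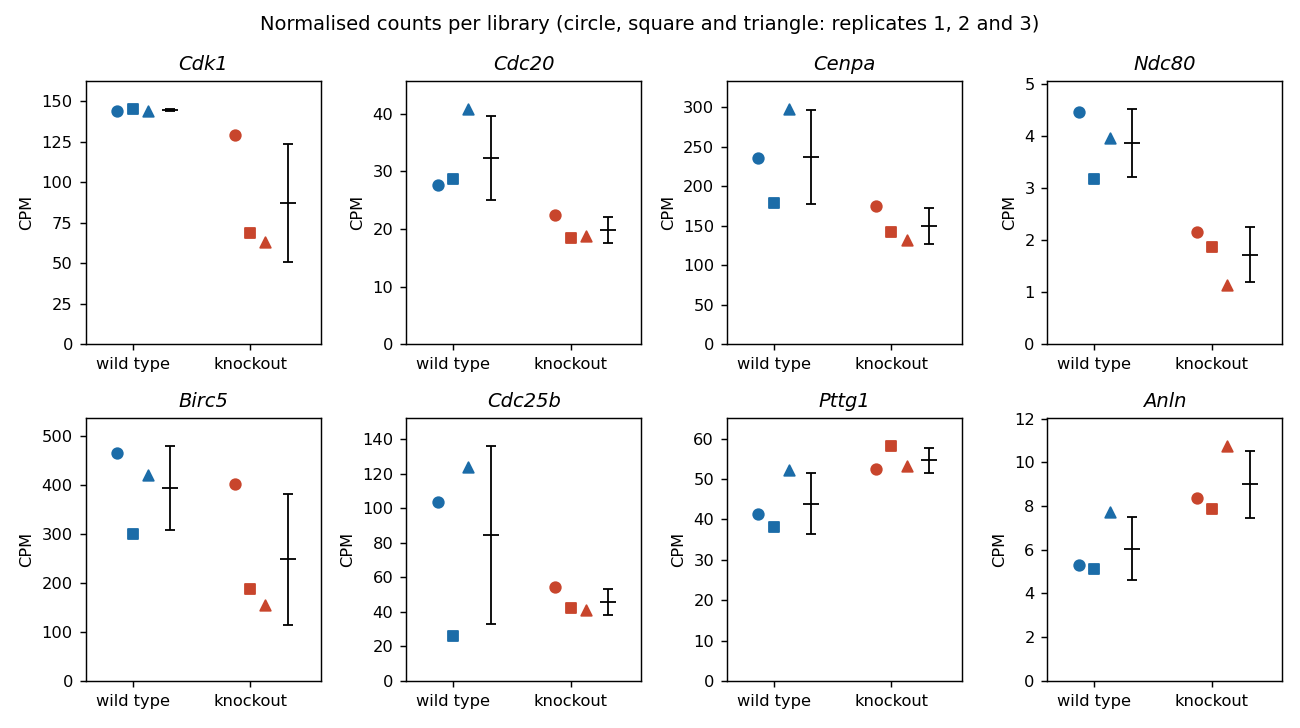
CPM of 8 genes in each library, on linear axes from 0 (blue, wild type; red, knockout; circle, square and triangle, replicates 1, 2 and 3), with the mean and SD of each group in black (n = 3). Wild type values of Cdk1 lie at 144 to 145 CPM and those of Cdc25b from 26.1 to 123.7 CPM, and all red points lie above all blue points for Pttg1 and Anln.

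At the centromere and kinetochore, 4 of 5 genes had a lower estimate, and the most negative values of all members were found here. Cenpa, the histone variant that marks centromeres (chromosome 5, 30666777 to 30674830), had 236, 178 and 297 CPM in wild type libraries and 175, 141 and 132 CPM in the knockouts. The highest knockout and the lowest wild type value were close, at 175.3 and 178.3 CPM, and the log2 fold change was -0.66 ± 0.23 (SE, edgeR adjusted p = 0.254). Cenpf, a large protein of the outer kinetochore, had 25.0, 17.2 and 31.1 CPM against 17.2, 8.32 and 7.12 CPM (-1.16 ± 0.40, adjusted p = 0.247). Knockout replicate 1 and wild type replicate 2 were level for Cenpf, and the other knockout libraries stood at 34% and 29.1% of the wild type mean. Cenpe, a kinetochore motor of the kinesin family, had 18.3, 8.58 and 16.5 CPM against 14.2, 6.72 and 8.19 CPM (-0.57 ± 0.40).

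Ndc80 and Nuf2 form a dimer that binds microtubules, and their estimates differed in sign. Ndc80 had 4.45, 3.16 and 3.97 CPM in wild type libraries and 2.15, 1.86 and 1.14 CPM in the knockouts, with no overlap (log2 fold change -1.16 ± 0.42 SE, adjusted p = 0.261). Nuf2 had 4.92, 2.92 and 6.24 CPM against 4.97, 5.46 and 4.41 CPM (0.07 ± 0.36), all 3 knockout values within the wild type range. Both genes were low in counts, with 16 to 152 counts per library for Ndc80, and the difference between their changes was not tested. Spc25, another subunit of the complex, had 85.8, 98.2 and 120.3 CPM against 70.5, 49.1 and 46.7 CPM (-0.87 ± 0.23). Its subunit Spc24 had 50.1, 44.0 and 70.0 CPM against 48.1, 38.0 and 35.4 CPM (-0.43 ± 0.23), with knockout replicate 1 within the wild type range.

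All 5 spindle motors and microtubule-binding proteins had lower estimates, with a median log2 fold change of -0.57. Kif11, the motor that pushes spindle poles apart, had 9.73, 6.02 and 15.7 CPM in wild type libraries and 9.01, 7.72 and 3.63 CPM in the knockouts (-0.63 ± 0.47 SE). Kif2c, MCAK, which takes microtubules apart at centromeres, had 13.6, 7.30 and 14.5 CPM against 14.02, 6.79 and 2.99 CPM (-0.57 ± 0.55). In both motors knockout replicate 3 was the lowest library, at 34.6% and 25.3% of the wild type mean. Tpx2, which activates Aurora A on the spindle, had 85.4, 51.4 and 103.5 CPM against 59.1, 49.6 and 64.1 CPM (-0.48 ± 0.27). Nusap1, which bundles spindle microtubules, had 32.6, 16.7 and 59.7 CPM against 23.7, 24.9 and 14.4 CPM (-0.79 ± 0.46), and Hmmr, a spindle assembly factor, had 8.29, 4.75 and 7.15 CPM against 7.05, 4.59 and 4.56 CPM (-0.32 ± 0.34). For Tpx2 and Nusap1 the span between wild type replicates 2 and 3 exceeded the span of all knockout libraries.

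Among genes of the spindle midzone and of cytokinesis, 4 of 5 had a lower estimate. Kif23, the kinesin of centralspindlin, had 17.2, 11.7 and 19.1 CPM in wild type libraries and 12.1, 9.19 and 3.77 CPM in the knockouts (log2 fold change -0.94 ± 0.43 SE, adjusted p = 0.358). Kif20a, a kinesin needed for late cytokinesis, had 179, 129 and 213 CPM against 143, 120.7 and 117 CPM (-0.45 ± 0.22). Its exons overlap those of Cdc23 on the opposite strand. Cdc23 had 58.9, 42.9 and 70.2 CPM against 47.7, 40.1 and 38.4 CPM (-0.45 ± 0.22). The values of Kif20a and Cdc23 were close to proportional in all 6 libraries. The level and change given for Kif20a thus cannot be assigned to it rather than to Cdc23. Ect2, which activates RhoA at the cleavage plane, had 15.4, 9.13 and 20.1 CPM against 17.9, 5.59 and 9.18 CPM (-0.45 ± 0.47). Prc1, which bundles antiparallel microtubules of the midzone, had 41.8, 27.9 and 52.7 CPM against 35.1, 33.4 and 38.0 CPM (-0.20 ± 0.25), with no knockout value outside the wild type range.

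Anln, anillin, which links actin, myosin and septins in the contractile ring (chromosome 9, 22332012 to 22389188), had the highest estimate of the 36 genes. It had 5.32, 5.11 and 7.72 CPM in wild type libraries and 8.38, 7.86 and 10.8 CPM in the knockouts. All knockout values lay above all wild type values, with means of 6.05 ± 1.45 and 8.996 ± 1.54 CPM and a log2 fold change of 0.57 ± 0.29 (SE) that did not pass (edgeR, adjusted p = 0.395, with 0.305 to 1 over the alternatives). Its sign was positive under all 17 alternatives, between 0.43 and 0.78, while the groups overlapped with library size as the only scaling and when genes had to reach 5 CPM in 3 libraries. Top2a, the topoisomerase that untangles sister chromatids, had 112, 75.6 and 169 CPM in wild type libraries and 101.8, 81.9 and 81.2 CPM in the knockouts (-0.43 ± 0.30), with every knockout value inside the wild type range.

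The rest of the mitotic machinery was also low mainly in knockout replicates 2 and 3, which lay below the wild type range for 60.6% and 68.7% of its tested genes, against 23.2% in replicate 1. Of 101 further mitosis genes in the tables, 99 were tested, of which 92 had a lower estimate (92.9%, median log2 fold change -0.43) and 0 were called in either direction. DESeq2 called 2 of the 99 lower, Pmf1 and Spc25, where it called 2.87% of all genes lower, so this count is no more than the background. Without knockout replicate 1, edgeR called 6 of the 99 lower, Mybl2, Cdc25a, Pkmyt1, Spc25, Cenph and Ska1, where it called 3.27% of all genes lower. Mybl2, which encodes B-Myb, a partner of the MuvB complex, had 15.7, 16.1 and 14.5 CPM in wild type libraries and 14.5, 2.86 and 2.49 CPM in the knockouts. It was level in 4 libraries and low in knockout replicates 2 and 3 (log2 fold change -1.21 ± 0.66 SE). Mki67, the proliferation marker Ki-67, had 22.8, 16.6 and 36.4 CPM against 16.4, 11.6 and 12.7 CPM (-0.90 ± 0.32), and Aspm, of the spindle pole, had 6.15, 2.80 and 9.16 CPM against 1.96, 1.86 and 2.71 CPM (-1.48 ± 0.49).

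Values of the other genes with the smallest p in their role follow. Pmf1 of the kinetochore had a log2 fold change of -1.01 ± 0.28 (SE), and Psrc1, a spindle protein, one of -2.32 ± 0.89. Melk, a kinase of dividing cells, stood at -1.04 ± 0.38, Cdca3 at -0.73 ± 0.29, the kinesins Kif4 and Kif15 at -1.35 ± 0.58 and -0.79 ± 0.38, and the condensin subunit Ncaph at -1.04 ± 0.51. Cks2 and Cdc25a, of mitotic entry, stood at -0.43 ± 0.22 and -0.80 ± 0.43, and Lin9 of MuvB at -0.46 ± 0.31. None of these passed the threshold in edgeR with all 6 libraries. In the knockouts Psrc1, at 1.41, 0.133 and 3.13 CPM, and Kif4, at 1.21, 0.666 and 0.427 CPM, were near the floor. Subunits and regulators of the anaphase-promoting complex, most of which are present through the cell cycle, had a median of -0.12 over 14 genes. Among them Cdc16 stood at -0.63 ± 0.28. Cdc23 stood at -0.45 ± 0.22, but its values were close to proportional to those of Kif20a and are not a separate observation. The corresponding median was -0.68 over 8 other kinesins and -0.72 over 9 other genes of cytokinesis and division.

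Earlier phases of the cell cycle were set beside these values. Of 41 genes of DNA replication, 38 had a lower estimate (92.7%, median -0.56), and 0 were called. The smallest p belonged to Pola1, of DNA polymerase alpha, with 10.7 ± 0.564 CPM (SD, n = 3) in wild type against 5.86 ± 1.35 CPM in the knockouts, and to Mcm7, of the replicative helicase, at 48.9 ± 14.1 and 26.4 ± 6.62 CPM. Of 23 regulators of G1, 13 had a lower estimate (56.5%, median -0.23) and 0 were called, with the smallest p for E2f2 (12.2 ± 9.37 and 1.39 ± 1.18 CPM) and Ccnd2, cyclin D2 (158 ± 147 and 33.9 ± 6.09 CPM). The replication genes had a median of 0.01 in knockout replicate 1 and of -0.77 and -1.03 in replicates 2 and 3, beside -0.12, -0.72 and -0.79 for the 36 mitosis and spindle genes. The G1 list stood at -0.10, -0.14 and -0.40. No difference between the lists was tested.

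**Figure D4:**
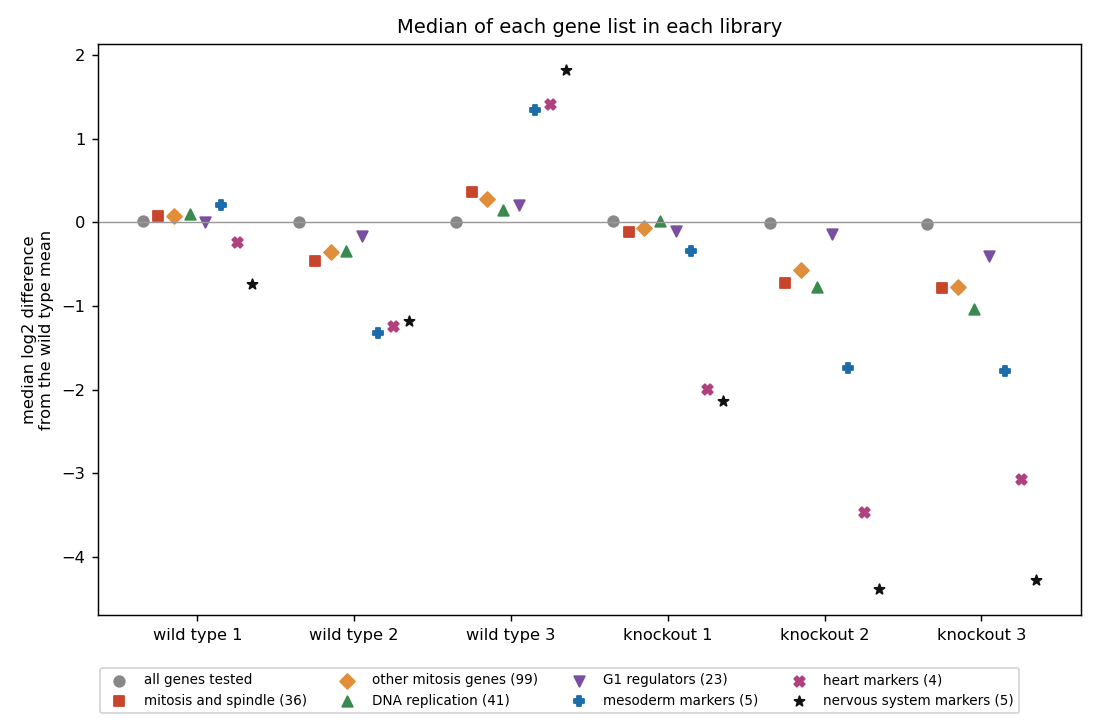
Median log2 difference from the wild type mean in each library for the 36 mitosis and spindle genes, the 3 other cell cycle lists, the tested markers of mesoderm, heart and nervous system, and all genes tested, with the number of tested genes of each list in the key. The cell cycle lists are highest in wild type replicate 3 and lowest in knockout replicate 3, whereas the median of all genes stays between -0.01 and 0.02.

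Marker genes of other tissues also differed between the libraries. Library totals were 18352150 to 36213611 counts in wild type and 14476809 to 23887717 in the knockouts. Adgrl2 itself lay at 7.55 to 15.9 CPM in wild type, against 1.66 to 5.48 CPM in the knockouts, which does not check the genotype since 3' tags can lie outside a deletion. The labelled tissue is whole embryo, yet 10 decidual markers summed to 18191 to 33029 CPM in wild type and 7198 to 11965 CPM in the knockouts, and none of them was at 0. In wild type that sum was led by Prl8a2, while 6 of the 10 had a higher estimate and the median log2 fold change was 0.71. Markers of embryonic mesoderm summed to 17.3 to 87.7 CPM in wild type and 13.6 to 26.3 CPM in the knockouts, with 5 of 8 at 0 in at least 1 library (Tbx6, Meox1, Meox2, Pax3 and Pax1). As a median, they differed from the wild type mean (log2) by 0.21, -1.32 and 1.34 in wild type and -0.34, -1.74 and -1.78 in the knockouts (5 of 8 tested). The libraries stood in the same order as for the mitosis genes and for the library totals, which was not so for the other embryonic lists. The median of 4 tested heart markers was -0.23, -1.24 and 1.42 in wild type and -1.996, -3.46 and -3.07 in the knockouts. That of 5 tested nervous system markers was -0.73, -1.18 and 1.82 in wild type and -2.14, -4.39 and -4.27 in the knockouts, with a median log2 fold change of -3.06. In both lists knockout replicate 1 lay below every wild type library and knockout replicate 2 was lowest. Heart markers summed to 38.6 to 308 CPM in wild type and 4.79 to 17.9 CPM in the knockouts, with 4 of 10 at 0 in at least 1 library (Myl7, Myl2, Nkx2-5 and Nppa).

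Extraembryonic and blood markers were lowest in the same pair of knockout libraries. Trophoblast markers summed to 4987, 5861 and 1397 CPM in wild type and to 3656, 55.1 and 147 CPM in the knockouts, with 4 of 10 at 0 in at least 1 library (Prl3b1, Psg17, Psg21 and Gcm1). Yolk sac markers summed to 425 to 680.3 CPM in wild type and 25.4 to 199 CPM in the knockouts, with 6 of 10 at 0 in at least 1 library, and primitive erythroid markers to 1489 to 2221 CPM and 56.2 to 751.5 CPM, with Epor at 0. Natural killer markers had sums of 167 to 353 CPM in wild type and 483 to 877 CPM in the knockouts, none at 0. Endothelial markers summed to 1101 to 2025 CPM and 1828 to 2243 CPM and macrophage markers to 248 to 577 CPM and 270 to 310.4 CPM, with Adgre1 at 0 in 1 library. The part of these tissues in the levels of the mitosis genes was not tested.

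**Figure D5:**
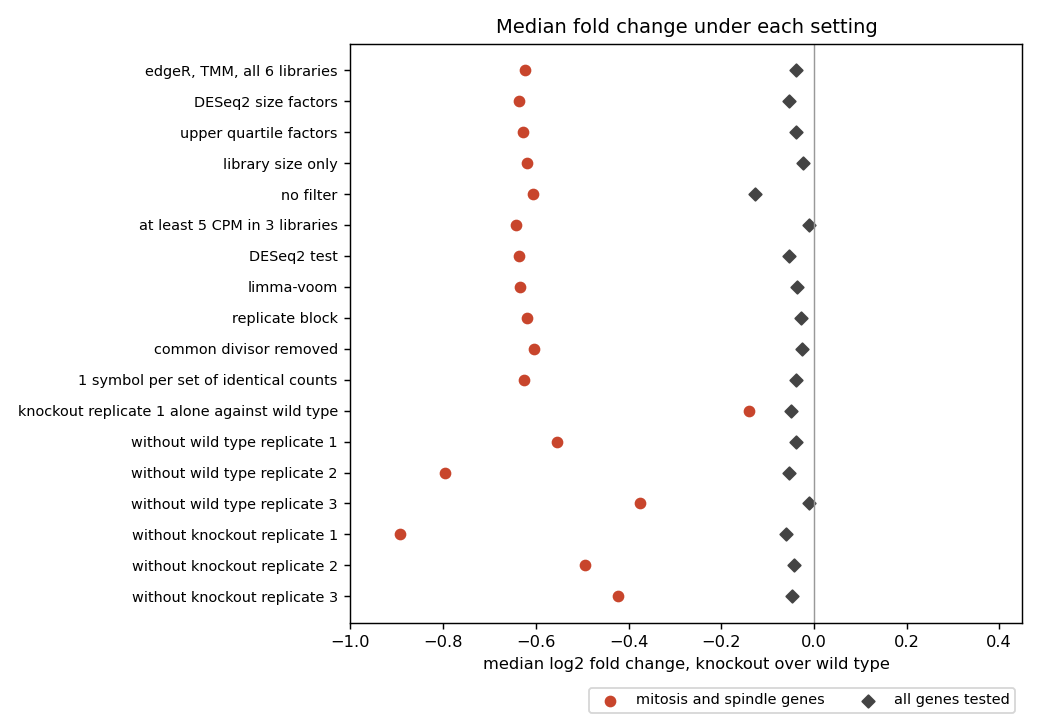
Median log2 fold change of the mitosis and spindle genes (red circles) and of all genes tested (black diamonds) for the reported analysis and 17 alternatives. The red points stay between -0.60 and -0.64 under other scalings, filters and tools with all 6 libraries, and spread from -0.89 to -0.14 when libraries are left out.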

How the data were processed

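The authors deposited whole-number counts per gene symbol without normalization, 1 table per library. Bowtie2, edgeR and the build mm10 are named, per the submitters' processing notes. The sources used here give no versions, annotation, counting program or handling of strand. Per the labels' protocols, libraries were made with a 3' tag kit. Of the 36 members, 10 had 6 counts that share a divisor above 1, and dividing by it was an alternative. No member had exactly the same 6 counts as another symbol. Proportional counts were not searched for, and those of Kif20a and Cdc23 were close to proportional.

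Genes were filtered with filterByExpr (minimum count 10), scaled by TMM and compared with the quasi-likelihood test of edgeR 4.0.16 in R 4.3.3, with no covariate, on all 6 libraries. The SE is the log2 fold change divided by the square root of F. The script was tested on simulated data with the same set dispersion for every gene. That run does not show the power of the test at the scatter of these libraries. DESeq2 1.42.0 and limma-voom (limma 3.58.1), other scalings and filters, a replicate block, and libraries left out were alternatives. The members, lists and tests were chosen with earlier results of these data known. Members are named by role with a value in every library. Of the further mitosis genes the 2 with the smallest p per role are named, as are genes called by an alternative and Spc24, set beside Spc25. All pairs of libraries differed by more than sampling noise (chi-square per degree of freedom 23.0 to 296). Knockout replicates 2 and 3, which had the smallest totals, gave the lowest value. The next was 88.1, for wild type replicates 1 and 2. The description code of wild type replicate 1 begins with another number than those of the other 5 samples, and its meaning is not stated. Gene positions are from GENCODE M21 and promoters from RefSeq (GRCm38.p6). Nervous system markers are given by the median of those tested, and their sum is not reported here.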

Additional observations from a re-analysis of the deposited data

How the results depend on the processing

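Over 17 alternatives the median log2 fold change of the 36 genes stayed below 0. It was -0.14 with knockout replicate 1 alone against wild type and lay between -0.89 and -0.37 when 1 library was left out, with -0.55 without wild type replicate 1. The count of members called lower was 0 except without knockout replicate 1, where it was 4 (range 0 to 4 over single libraries left out), and 0 were called higher throughout. Members with all knockout values below all wild type values numbered 2 with library size only, and 4 to 27 when 1 library was left out (27 without wild type replicate 2, 24 without knockout replicate 1). Members with all knockout values above numbered 1 with DESeq2 size factors, with upper quartile factors and with DESeq2, and 0 with library size only and with at least 5 CPM in 3 libraries. Of the other mitosis genes, 2 were called lower with DESeq2 and 0 to 6 when 1 library was left out. The number of genes called over the whole table was 7 lower and 0 higher, against 387 and 470 with DESeq2, 466 and 252 without knockout replicate 1, 11 and 0 without wild type replicate 2, and 0 and 0 in the fits that left out wild type replicate 1 or either of knockout replicates 2 and 3, and with 1 symbol per set of identical counts.

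Of 609 values for single members, 594 kept sign and side of the threshold, 4 passed it and 11 changed sign. With knockout replicate 1 alone the log2 fold change was 0.081 for Ccna2, 0.21 for Ccnb2, 0.0157 for Ccnf, 0.0484 for Birc5, 0.18 for Ttk, 0.27 for Kif2c, 0.0876 for Hmmr and 0.29 for Ect2. When 1 library was left out, Nuf2 ranged from -0.16 (without wild type replicate 2) to 0.33, Ube2c from -0.38 to 0.0199 and Prc1 from -0.40 to 0.022 (both highest without wild type replicate 3). The cause was not tested.

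The replicate numbers are shared by the groups, but libraries of the same number did not all deviate together (correlations across genes of 0.13, -0.03 and 0.07 for numbers 1, 2 and 3). Not every library correlated best with its own number. Correlations this weak, over 3 libraries per group, cannot show whether libraries of the same number share a litter or batch. With the replicate block the median was -0.62, 0 members were called and 0 genes over the whole table. Among the members depth limits Cdc25c most, with 1 to 73 counts per library.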
